A study of Mus musculus with 16 samples.

Results

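The genes described here encode the matrix protein fibronectin (Fn1), the laminin chains Lama3 and Lamb3, and the epithelial integrin subunits Itgb6, Itgav, Itga2, Itga3, Itgb1 and Itgb4. They were chosen by gene symbol, with earlier results of these data known. All 9 listed symbols were found, each with 1 probe set, among 18850 named genes on the array, and all 9 were among the 11766 genes bright enough to be tested. Fn1 passed that filter through its 8 wild-type arrays alone, and the other 8 genes were above it on all 16 arrays.

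RNA came from mouse colon organoids, cultured spheres of colon epithelium, grown in ENR medium, with 4 arrays in each of 4 groups. WT and mutant organoids were each kept untreated or given tumour necrosis factor alpha (TNFa), an inflammatory cytokine, for 12 h at 50 ng/ml. The treatment protocol names TNFa for every sample, and samples were taken as treated only where the title and the treatment field name it. The mutant is labelled ATF2/7 fl in the titles, ATF2 fl/fl / ATF7 KO in the genotype field, and as ATF2 KO with ATF7 floxed in the descriptions. The genotype field and the descriptions contradict each other on which gene was knocked out, and none names a Cre or says that a floxed allele was recombined. The labels give no strain, sex, age or number of animals, and do not state whether the numbered samples of a group are separate cultures or animals. The p-values therefore measure the spread between these samples, which may be technical.

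Integrins are paired alpha and beta subunits that hold epithelial cells to their matrix and pass signals inward. Fibronectin is a ligand of integrins that contain the alpha v subunit or, with alpha 5, the beta 1 subunit. Beta 6 pairs with alpha v alone, is made largely by epithelium, binds fibronectin, and releases transforming growth factor beta (TGF-beta) from its latent form. Lama3 and Lamb3 encode chains of laminin-332, a laminin of epithelial basement membranes, which the integrins of alpha 3 with beta 1 and of alpha 6 with beta 4 bind. Integrin alpha 2 pairs with beta 1 and is a collagen receptor.

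Epithelial identity was clear on every array. The 8 epithelial marker genes on the array, Epcam, Cdh1, Krt8, Krt18, Krt19, Vil1, Cdx1 and Cdx2, were above the dim limit throughout. That limit, 6.56 log2, is the highest of the 16 arrays' 40th percentiles, and folds that involve a group mean below it are approximate. All 6 endothelial markers, all 3 glial markers and 5 of 6 immune markers were below it on every array. Of 12 fibroblast and smooth muscle markers 5 were below it on every array (Col3a1, Dcn, Lum, Acta2 and Des), while Col1a1, Pdgfrb and Vim gave signal in every group. Myh11 was just above it in every group mean (6.65 to 6.74 log2), and Tagln in WT (6.59) and mutant + TNFa (6.60). Array WT + TNFa 2 stood apart, with a mean correlation of 0.977 with the others of its group against 0.986 to 0.988 for those, and results that change without it are given both ways.

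Upstream sequence is shown for Itgb6 and Itga2, which rose with TNFa, and for Itgb1, the shared beta chain, which did not pass the test. The sequences are the 250 bases before an annotated start, from RefSeq on GRCm38.p6, read 5′ to 3′ on the gene's strand. They lie at chr2:60722604-60722853 (minus strand) for Itgb6, chr13:114932101-114932350 (minus strand) for Itga2 and chr8:128685404-128685653 (plus strand) for Itgb1. Capitals mark matches, on either strand, to a loose NF-kB motif of GGG and CC with any 5 bases between them. NF-kB is the transcription factor best known for acting downstream of TNFa.
Itgb6: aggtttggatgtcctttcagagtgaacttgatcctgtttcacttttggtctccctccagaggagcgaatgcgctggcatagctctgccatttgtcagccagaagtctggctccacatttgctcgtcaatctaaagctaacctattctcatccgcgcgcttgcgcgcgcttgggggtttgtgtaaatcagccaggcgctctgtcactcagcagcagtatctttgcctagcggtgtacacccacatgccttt
Itga2: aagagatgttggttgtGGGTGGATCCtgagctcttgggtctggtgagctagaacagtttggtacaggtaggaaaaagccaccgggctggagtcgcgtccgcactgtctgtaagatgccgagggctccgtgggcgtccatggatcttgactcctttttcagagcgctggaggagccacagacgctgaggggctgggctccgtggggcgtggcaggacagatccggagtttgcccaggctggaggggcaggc
Itgb1: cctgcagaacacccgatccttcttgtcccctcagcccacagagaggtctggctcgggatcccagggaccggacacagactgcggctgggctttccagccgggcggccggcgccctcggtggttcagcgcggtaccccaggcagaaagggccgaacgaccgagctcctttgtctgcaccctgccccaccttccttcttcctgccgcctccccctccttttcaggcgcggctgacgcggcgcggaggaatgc
Itgb6 and Itgb1 held no match, and Itga2 held 1, GGGTGGATCC, beginning 234 bases before the start. Among the genes that did not pass for TNFa, the windows of Itga3 held 3 matches over its starts, those of Lamb3 held 3 and that of Itgav held 1. Of all 32851 promoter windows of that length 45.8% held this motif. The promoter table held 6 of the 9 genes with 9 starts in all, and lacked Fn1, Itgb4 and Lama3. None of the 9 windows matched the AP-1 motif TGANTCA or the ATF/CREB motif TGACGTCA on either strand, which 6.75% and 1.55% of all windows held. A match or its absence describes these letters alone and shows no binding.

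**Figure D1:**
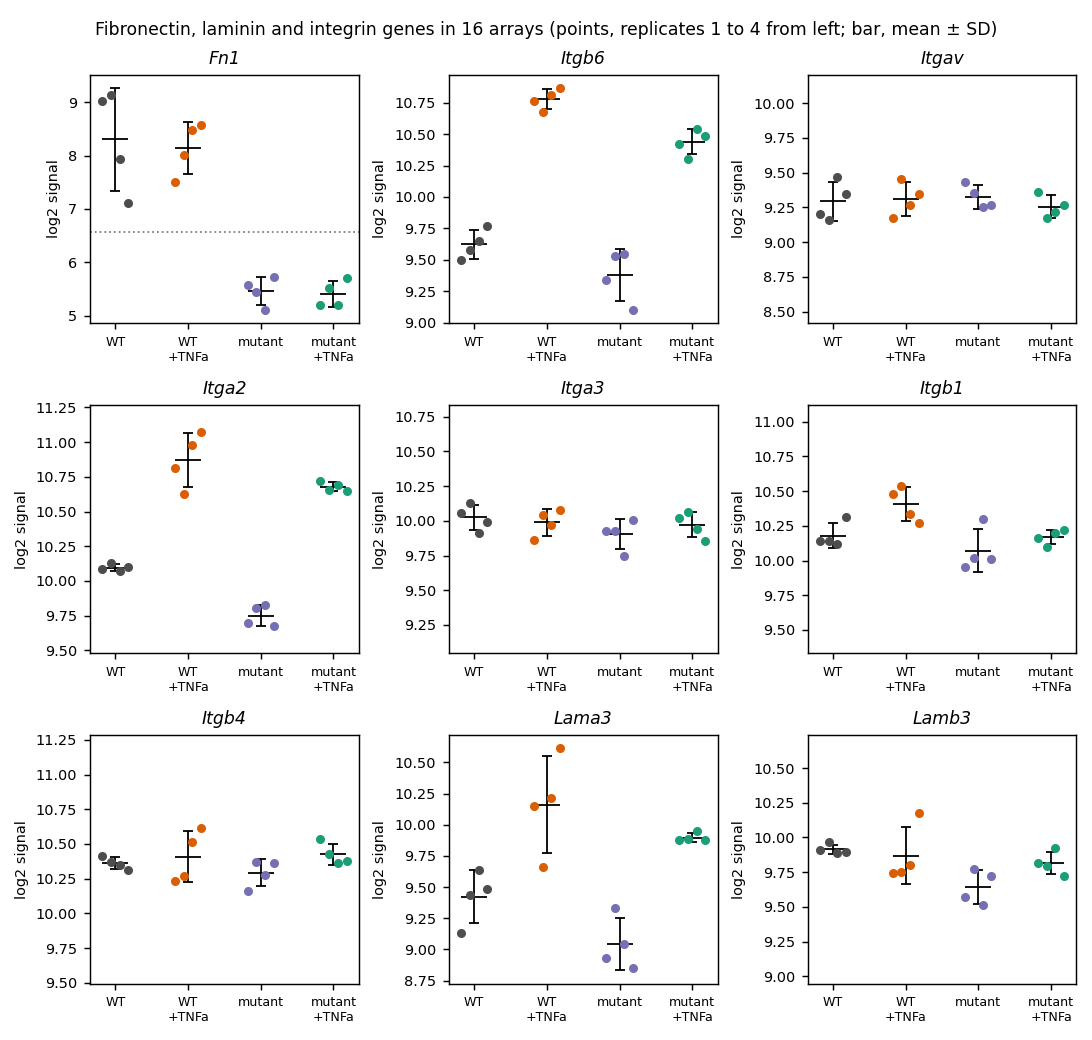
Signal of the 9 genes (y axis, log2 signal) on each of the 16 arrays, grouped on the x axis; points are arrays, the black mark is the group mean and the bar its SD (n = 4), and the dotted line in the Fn1 panel is the dim limit of 6.56 log2. The 8 WT arrays lie above that line for Fn1 and the 8 mutant arrays below it, and Itgb6, Itga2 and Lama3 are higher with TNFa in both genotypes.

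Fibronectin mRNA was far lower in the mutant, with and without TNFa. Fn1 was tested only through its WT arrays, where it was high, so its genotype tests are given as a description. Fn1, on chromosome 1, gave 9.04, 9.15, 7.94 and 7.11 log2 on the WT arrays and 5.57, 5.44, 5.10 and 5.72 on the mutant arrays. With TNFa it gave 7.51, 8.02, 8.48 and 8.57 in WT and 5.21, 5.51, 5.19 and 5.70 in the mutant. The lowest of the 8 WT arrays was 1.39 log2 above the highest of the 8 mutant arrays, so the genotypes did not overlap under either condition. Without TNFa the mean was 8.31 ± 0.97 log2 in WT (SD, n = 4) and 5.46 ± 0.26 in the mutant, 7.21-fold lower (−2.85 log2, SE 0.34, 95% interval −3.57 to −2.13, limma adjusted p = 1.1e-04). With TNFa the means were 8.15 ± 0.49 and 5.40 ± 0.25 log2, 6.70-fold lower (−2.74 log2, SE 0.34, limma adjusted p = 1.7e-04).

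The size of that fold rests on dim signal, since all 8 mutant arrays were below 6.56 log2. With every value below the limit raised to it, a setting chosen after seeing the data, WT was 3.36-fold higher without TNFa and 3.00-fold higher with it. That setting gives all 8 mutant arrays the same value and so no spread, and no p-value is given for it. The spread of Fn1 was wider in WT than in the mutant, whereas limma assumes a common spread. Within WT without TNFa the arrays spanned 4.09-fold, with arrays 1 and 2 high and array 4 low. TNFa left Fn1 without a detectable change, at −0.16 log2 in WT (95% interval −0.89 to 0.56, limma adjusted p = 0.83) and −0.06 in the mutant (95% interval −0.78 to 0.67, limma adjusted p = 0.98).

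In these bulk cultures, fewer cells that make a transcript and less of it per cell cannot be told apart. Fibroblasts are a rich source of fibronectin, so their markers are given beside it. The summed linear signal of the 12 fibroblast and smooth muscle markers ranged from 1060 to 1226 over the 8 WT arrays and from 1056 to 1233 over the 8 mutant arrays. Only 5 of the 12 were bright enough to be tested, so part of that sum is background, and a small change in fibroblasts could go unseen. None of the 5 of them that were tested passed in any of the 5 comparisons (limma), and over those 5 the median genotype difference was 0.03 log2 without TNFa and 0.12 with it. Of 8 epithelial markers, 1, Cdx2, an intestinal identity factor, was lower in the mutant without TNFa, where 1.48% of all tested genes were.

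Of the 6 integrin subunits, beta 6 had the largest estimated rise with TNFa in each genotype. Itgb6 gave 9.50, 9.58, 9.65 and 9.77 log2 in WT and 10.76, 10.67, 10.81 and 10.87 with TNFa. In the mutant it gave 9.34, 9.53, 9.55 and 9.10 log2, and 10.42, 10.31, 10.54 and 10.49 with TNFa. Every treated array was above every untreated array, in both genotypes. The rise was 2.22-fold in WT (1.15 log2, SE 0.09, limma adjusted p = 2.3e-07) and 2.08-fold in the mutant (1.06 log2, SE 0.09, limma adjusted p = 6.1e-07). The TNFa effects differed between genotypes by −0.09 log2 (95% interval −0.37 to 0.18, limma adjusted p = 0.91).

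Between genotypes Itgb6 missed the threshold, with lower means in the mutant. The difference was −0.34 log2 with TNFa (95% interval −0.53 to −0.15, limma adjusted p = 0.058), and the treated groups did not overlap. Without array WT + TNFa 2 it was −0.37 and was called (limma adjusted p = 0.0485), and it was also called without mutant 3 (0.0487) or mutant 4 (0.0218). It was called in 8 of 28 alternatives, among them the stricter filter, variance trend, array weights, quantile normalization and only the groups compared. Without TNFa it was −0.24 log2 (limma adjusted p = 0.23), and the groups overlapped. Itgb6 lies on chromosome 2, 13.1 Mb from Atf2, one of the genes that the mutant's labels name. Atf2 itself had a mean of 10.15 log2, and its 16 values, over both genotypes, spanned 0.30 log2.

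Itgav, which encodes the alpha v partner of beta 6 and lies on the same chromosome 9.83 Mb from Atf2, passed in no comparison. Its 16 values spanned 0.31 log2 in all, and its group means ran from 9.25 to 9.33 log2. Its TNFa changes were 0.02 log2 in WT (95% interval −0.15 to 0.18) and −0.07 in the mutant (95% interval −0.23 to 0.09), with limma adjusted p = 0.93 and 0.78. Both intervals lie below the intervals of the rise of Itgb6, which began at 0.96 and 0.87 log2. Of the other beta chains that pair with alpha v, Itgb5 gave group means of 7.34 to 7.56 log2 and passed in no comparison (limma adjusted p of 0.31 to 0.89). Itgb8 reached at most 6.40 log2 on any array, below the dim limit, and was not tested.

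The collagen receptor subunit alpha 2 rose alongside beta 6. Itga2 gave 10.08, 10.13, 10.07 and 10.10 log2 in WT and 10.81, 10.62, 10.98 and 11.07 with TNFa. In the mutant it gave 9.69, 9.81, 9.82 and 9.68 log2, and 10.72, 10.66, 10.69 and 10.65 with TNFa. Treated and untreated arrays did not overlap in either genotype. The rise was 1.71-fold in WT (0.78 log2, SE 0.08, limma adjusted p = 2.8e-06) and 1.90-fold in the mutant (0.93 log2, SE 0.08, limma adjusted p = 3.9e-07).

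Itga2 was lower in the mutant before treatment. The difference was 1.27-fold (−0.34 log2, SE 0.08, limma adjusted p = 0.020), with all 4 mutant arrays below all 4 WT arrays. This call was lost without WT 2 (limma adjusted p = 0.061), WT 4 (0.057), mutant 1 (0.062) or mutant 4 (0.071). With TNFa the difference was −0.19 log2 (95% interval −0.36 to −0.03, limma adjusted p = 0.25), or −0.28 and called without array WT + TNFa 2 (limma adjusted p = 0.022). It was also called with array weights (limma adjusted p = 0.013). The TNFa effects differed by 0.15 log2 between genotypes (95% interval −0.08 to 0.38, limma adjusted p = 0.82).

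The beta 1 subunit, shared by most of these receptors, passed in no comparison. Itgb1 gave 10.14, 10.14, 10.12 and 10.31 log2 in WT and 10.48, 10.54, 10.34 and 10.27 with TNFa, with overlap. The difference was 0.23 log2 (95% interval 0.06 to 0.40, limma adjusted p = 0.077), and it was called without WT + TNFa 4 (limma adjusted p = 0.042) or mutant 3 (0.035). It was also called with the variance trend (limma adjusted p = 0.035), and in 3 of 27 alternatives in all. In the mutant Itgb1 gave 9.95, 10.02, 10.30 and 10.01 log2, and 10.17, 10.10, 10.20 and 10.22 with TNFa, a difference of 0.10 (limma adjusted p = 0.65). With TNFa the mutant arrays were all below the WT arrays (−0.24 log2, limma adjusted p = 0.15).

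The laminin receptor subunits alpha 3 and beta 4 varied little over the 16 arrays. Itga3 had group means from 9.90 to 10.02 log2, and its 16 values spanned 0.38 log2. Itgb4, the beta chain of hemidesmosomes, had group means from 10.29 to 10.43 log2, and its values spanned 0.45. For TNFa in the mutant, Itgb4 differed by 0.13 log2 (95% interval −0.03 to 0.30, limma adjusted p = 0.48), and in WT by 0.05 (limma adjusted p = 0.78). No comparison of these subunits passed the test, with limma adjusted p from 0.51 to 0.95 for Itga3 and from 0.48 to 0.95 for Itgb4, and the groups overlapped in each of the 4 comparisons between groups.

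Itga6, which encodes the alpha partner of beta 4, differed between genotypes. It gave 11.27, 11.17, 11.12 and 11.15 log2 in WT and 11.51, 11.61, 11.70 and 11.62 in the mutant, without overlap. The mutant was 1.35-fold higher (0.43 log2, SE 0.06, limma adjusted p = 6.5e-04). With TNFa Itga6 gave 11.30, 11.60, 11.43 and 11.43 log2 in WT, a rise of 1.20-fold (0.26 log2, limma adjusted p = 0.013, or 0.080 from the WT arrays alone). In the mutant it gave 11.64, 11.59, 11.65 and 11.67 with TNFa (0.03 log2, limma adjusted p = 0.92). The difference of these effects was −0.23 log2 (limma adjusted p = 0.56), so the effects are not shown to differ. With TNFa the mutant was 0.20 log2 higher (limma adjusted p = 0.13), or 0.25 and called without array WT + TNFa 2 (limma adjusted p = 0.025). This difference was also called with the variance trend (limma adjusted p = 0.028) or array weights (0.011).

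Of the laminin-332 chains, Lama3 rose with TNFa and Lamb3 did not pass the test. Lama3, on chromosome 18, gave 9.13, 9.44, 9.63 and 9.49 log2 in WT and 10.15, 9.66, 10.22 and 10.61 with TNFa. In the mutant it gave 8.93, 9.33, 9.05 and 8.85 log2, and 9.88, 9.88, 9.95 and 9.88 with TNFa. Treated and untreated arrays did not overlap in either genotype, although WT + TNFa 2 was only just above the highest untreated array. The rise was 1.67-fold in WT (0.74 log2, SE 0.15, limma adjusted p = 0.0038) and 1.81-fold in the mutant (0.86 log2, SE 0.15, limma adjusted p = 0.0017). The TNFa effects differed by 0.12 log2 (95% interval −0.34 to 0.57, limma adjusted p = 0.94).

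Lamb3, on chromosome 1, gave 9.91, 9.96, 9.89 and 9.90 log2 in WT and 9.75, 9.75, 9.80 and 10.17 with TNFa. In the mutant it gave 9.57, 9.77, 9.51 and 9.72 log2, and 9.82, 9.80, 9.92 and 9.73 with TNFa. The TNFa difference was −0.05 log2 in WT (95% interval −0.23 to 0.14, limma adjusted p = 0.81) and 0.17 in the mutant (95% interval −0.01 to 0.36, limma adjusted p = 0.36). The untreated mutant arrays were all below the untreated WT arrays (−0.27 log2, limma adjusted p = 0.13), and this difference was called without WT + TNFa 4 (limma adjusted p = 0.029). Neither gene's difference between genotypes passed in the fit to all 16 arrays.

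**Figure D2:**
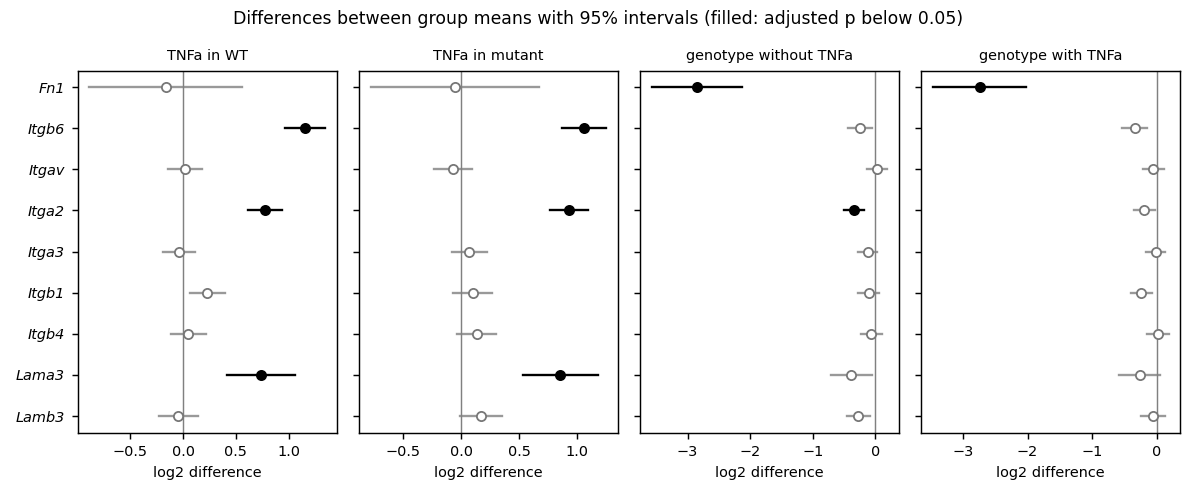
Differences between group means (x axis, log2) for the 9 genes in 4 comparisons; points are estimates, lines are 95% intervals from limma, and filled points have an adjusted p below 0.05. With TNFa only Itgb6, Itga2 and Lama3 are filled, in both genotypes, and between genotypes Fn1 is filled under both conditions and Itga2 without TNFa.

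In all, 3 of the 9 genes rose with TNFa in WT, where 5.03% of all tested genes rose, and 3 of 9 in the mutant, where 3.51% did. The same 3 genes, Itgb6, Itga2 and Lama3, were called in both, and none fell. Their groups were also the only ones of the 9 genes that did not overlap, against 6.82% of tested genes higher without overlap in WT and 7.88% in the mutant. The median TNFa change of the 9 genes was 0.05 log2 in WT and 0.13 in the mutant, beside 0.01 in each over all tested genes, and the other 6 genes did not pass in either. The 9 genes were chosen with earlier results known, so these counts and those between genotypes are a description.

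Between genotypes, 2 of 9 were lower in the mutant without TNFa (Fn1 and Itga2) and 1 of 9 with it (Fn1), where 1.48% and 1.13% of tested genes were. Fn1 entered the counts of this paragraph only through the WT arrays, where it was high. Of the other 8 genes, 1 was lower without TNFa and 0 with it. Groups did not overlap for 3 genes without TNFa (Fn1, Itga2 and Lamb3), against 5.88% of tested genes lower without overlap. They did not overlap for 3 with TNFa (Fn1, Itgb6 and Itgb1), against 4.62%. Estimates were below 0 for 8 of 9 genes in each condition, and for 7 of 8 without Fn1, while 6158 and 5954 of the 11766 tested genes were. Without Fn1 the median difference was −0.18 log2 without TNFa and −0.12 with it, beside −0.01 and 0.00 over all tested genes. None of the 9 passed for the difference of the TNFa effects (limma), where 1 of 11766 genes (0.0085%) did and 855 had an unadjusted p below 0.05. No listed gene was called there under any alternative tried.

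The WT comparisons share arrays with each other, as do those of the mutant. The TNFa effect in WT and the TNFa effect in the mutant share none, and neither do the genotype differences with and without TNFa.

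The genes also differed in how much the 4 arrays of a group varied. In WT + TNFa the SD was 0.39 log2 for Lama3, 0.20 for Itga2, 0.21 for Lamb3 and 0.18 for Itgb4, against a median of 0.14 over all tested genes. In mutant + TNFa the same genes had SDs of 0.04, 0.03, 0.08 and 0.08 log2, against a median of 0.08. Array WT + TNFa 4 gave the highest value of its group for each of these 4 genes, and for Itgb6, Itga3 and Fn1 as well. Without array WT + TNFa 2 the SD of Lama3 in that group was 0.25 log2 and that of Lamb3 0.23, against a median of 0.09. The TNFa rise in WT was then 1.88-fold for Lama3, 1.81-fold for Itga2 and 2.28-fold for Itgb6, all still called (limma adjusted p = 1.5e-04, 1.7e-07 and 5.7e-07).

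For each called gene, the other tested genes with the most similar profile were found by the smallest root mean square difference over the 16 arrays after each gene's mean was subtracted. Fn1 itself varied by 1.48 log2 (root mean square), and lay closest to Ctla2a, a cysteine protease inhibitor homologue, at a difference of 0.39 log2. Next were Ttc21b, an intraflagellar transport gene, at 0.61, and Ddah1, an enzyme that degrades nitric oxide synthase inhibitors, at 0.65. Ctla2a lies on chromosome 13, Ddah1 on chromosome 3, and Ttc21b on chromosome 2, as does Atf2. Itgb6, which varied by 0.58 log2, lay closest to the guanylin gene Guca2a at 0.13, then 1700066B19Rik at 0.15 and the chemokine gene Cxcl16 at 0.16. Itga2, which varied by 0.46, lay closest to the glycosyltransferase gene Gcnt2 at 0.12, then Sh3kbp1 and Hacd2, both at 0.14. Lama3, which varied by 0.48, lay closest to Gcnt2 at 0.16, then Rap2b at 0.19 and Sgcb at 0.20. Among the 9 genes themselves, the closest pairs were Itga3 with Itgb4, Itga3 with Lamb3 and Itgb4 with Lamb3, each at 0.11 log2. Itga2 lay 0.15 log2 from Lama3 and 0.18 from Itgb6. Fn1 lay at least 1.40 from each of the others, near its own variation of 1.48.

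**Figure D3:**
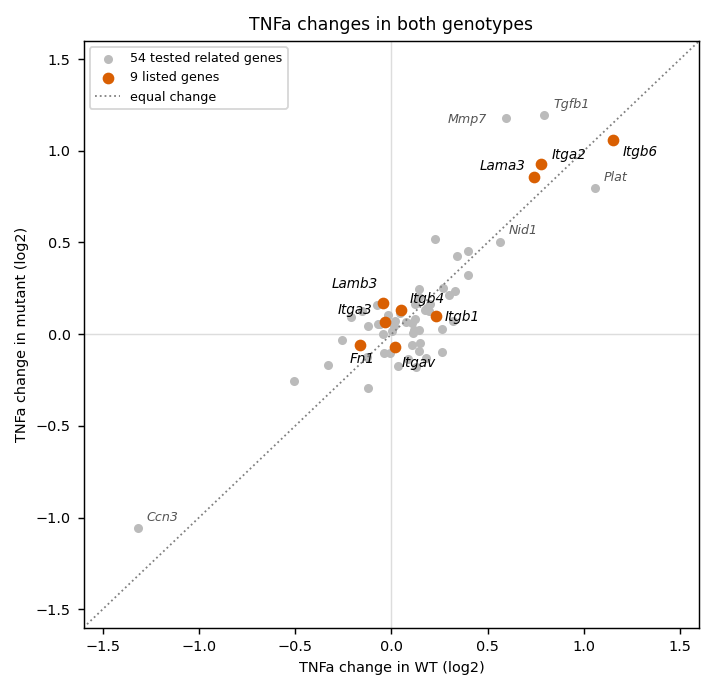
TNFa change in WT (x axis, log2) against TNFa change in the mutant (y axis, log2) for the 9 genes (orange) and 54 tested related genes (grey); the dotted line marks equal change, and the effects share no array. Itgb6, Itga2 and Lama3 lie at 0.74 to 1.15 in WT and 0.86 to 1.06 in the mutant, with Tgfb1 and Plat also high and Ccn3 low in both.

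The wider adhesion pathway was read from 6 lists of related genes, also chosen with earlier results known, 81 on the array and 54 tested. TNFa raised 12 and lowered 2 of the 54 in WT (5.03% and 5.75% of all tested genes) and raised 9 and lowered 1 in the mutant (3.51% and 2.47%). The medians were 0.12 and 0.06 log2, beside 0.01 in each over all tested genes. The 9 raised in the mutant include Lama4, which was tested only through its mutant + TNFa arrays, where it was high. Of 18 integrin adaptor and adhesion signalling genes 5 rose in WT and 3 in the mutant, and none fell. Zyx, which encodes the focal adhesion protein zyxin, gave 8.80, 8.83, 8.77 and 8.70 log2 in WT and 9.12, 9.14, 9.19 and 9.23 with TNFa. It rose 1.32-fold in WT (limma adjusted p = 1.0e-04) and 1.37-fold in the mutant (limma adjusted p = 3.6e-05). Fermt1, the epithelial kindlin that activates integrins, rose 1.20-fold in WT and 1.19-fold in the mutant (limma adjusted p = 0.0018 and 0.0039).

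The TGF-beta ligand that integrins of alpha v activate rose beside beta 6. Tgfb1 gave 7.25, 7.44, 7.40 and 7.49 log2 in WT and 8.08, 8.11, 8.14 and 8.41 with TNFa. In the mutant it gave 7.03, 7.46, 6.91 and 7.06 log2, and 8.41, 8.04, 8.49 and 8.30 with TNFa. The groups did not overlap in either genotype. The rise was 1.73-fold in WT (0.79 log2, SE 0.11, limma adjusted p = 1.6e-04) and 2.29-fold in the mutant (1.20 log2, SE 0.11, limma adjusted p = 2.2e-06), and the effects differed by 0.40 log2 (limma adjusted p = 0.60). Ccn3, a secreted integrin ligand of the CCN family, moved the other way, falling 2.49-fold in WT (limma adjusted p = 3.3e-07) and 2.08-fold in the mutant (limma adjusted p = 4.5e-06). Its 4 group means were 8.92 ± 0.09 log2 in WT, 7.60 ± 0.25 with TNFa, 9.44 ± 0.10 in the mutant and 8.38 ± 0.18 with TNFa (SD, n = 4). The mutant was higher than WT both without TNFa (1.43-fold, limma adjusted p = 0.012) and with it (1.72-fold, limma adjusted p = 4.5e-04).

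Of 8 tested hemidesmosome and basement membrane genes, 2 rose in each genotype and none fell. Over all tested genes 5.03% rose in WT and 3.51% in the mutant. Nid1, which encodes the laminin linker nidogen, rose 1.48-fold in WT (limma adjusted p = 0.0054) and 1.42-fold in the mutant (limma adjusted p = 0.017), where the call was lost without mutant 1 (limma adjusted p = 0.068), mutant 4 (0.067) or mutant + TNFa 1 (0.059). Agrn, which encodes the proteoglycan agrin, rose 1.27-fold in WT (limma adjusted p = 0.015) and 1.35-fold in the mutant (limma adjusted p = 0.0041). Of 4 other tested laminin chains, Lama5 rose 1.15-fold in WT (limma adjusted p = 0.029). Agrn and Lama5 were named after their values were seen, and were not recomputed under the alternatives. Lama4 passed the brightness filter through its 4 mutant + TNFa arrays alone, so its calls are given as a description. Its mean there was 6.69 log2, beside 6.17 in the untreated mutant and 6.29 in WT with TNFa, both below the dim limit.

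Among 8 tested matrix proteases and inhibitors, TNFa raised 1 in WT and 2 in the mutant, where 5.03% and 3.51% of all tested genes rose. Plat, the tissue plasminogen activator, rose 2.08-fold in WT (limma adjusted p = 9.8e-07) and 1.73-fold in the mutant (limma adjusted p = 3.1e-05). Mmp7, the epithelial matrilysin, rose 2.27-fold in the mutant (limma adjusted p = 6.0e-04) and stood 1.51-fold higher with TNFa in WT, where it missed the threshold (limma adjusted p = 0.053) but was called in 7 of 27 alternatives. Those were the stricter filter, array weights, only the groups compared, and leaving out WT 2, mutant 1, mutant + TNFa 2 or mutant + TNFa 4, with limma adjusted p from 0.026 to 0.048. The difference of these effects was 0.59 log2 (limma adjusted p = 0.66). With TNFa Mmp7 was 1.67-fold higher in the mutant than in WT (limma adjusted p = 0.044). That call was lost without any of 10 arrays (WT 1 or 3, WT + TNFa 1, 2 or 4, mutant 2 or 4, mutant + TNFa 1, 3 or 4), at up to 0.151, and held in 13 of 27 alternatives.

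Between genotypes, 4 of the 54 related genes were higher in the mutant without TNFa and 3 with it, where 1.00% and 1.56% of all tested genes were, and none was lower. Without TNFa these were Itga6, Ccn3, the membrane protease gene Mmp14 (1.40-fold, limma adjusted p = 0.025) and the matricellular gene Ccn2 (1.22-fold, limma adjusted p = 0.041). The call of Mmp14 was lost without WT 2 or 4 or mutant 2, 3 or 4, at up to 0.088. The call of Ccn2 was lost without WT 3 or 4, mutant 1, 3 or 4 or mutant + TNFa 1, 2 or 3, at up to 0.145. It held in 13 of 27 alternatives, and was also lost with no brightness filter (0.088), the variance trend (0.052), centring on array medians (0.053), only the groups compared (0.085) and the replicate block (0.095). With TNFa they were Ccn3, Mmp7 and Lama4, the last of which was tested only through the arrays where it was high. Plat was lower in the mutant with TNFa by an amount that missed the threshold (−0.36 log2, limma adjusted p = 0.053). Without array WT + TNFa 2 it was −0.41 and called (limma adjusted p = 0.031), as it was without WT 1 (0.043) or WT + TNFa 1 (0.019). It was called in 7 of 27 alternatives, among them the stricter filter, variance trend, array weights and quantile normalization.

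**Figure D4:**
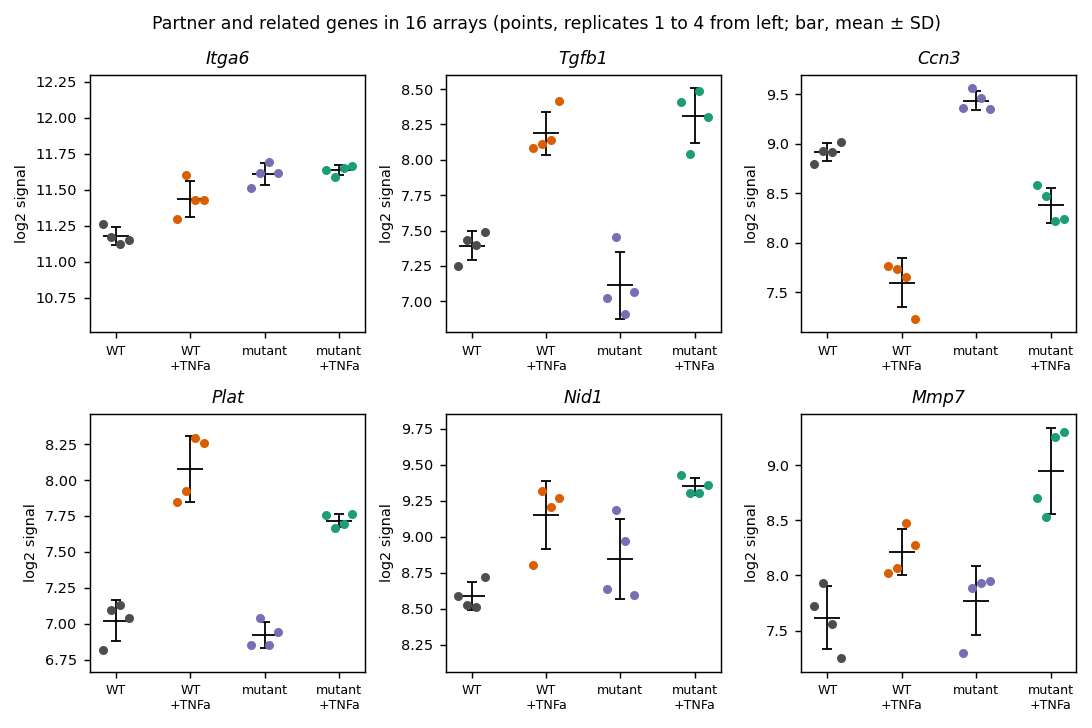
Signal of 6 partner and related genes (y axis, log2 signal) on each of the 16 arrays, grouped on the x axis; points are arrays, the black mark is the group mean and the bar its SD (n = 4). Itga6 is higher in the mutant without TNFa, Tgfb1, Plat and Nid1 are higher with TNFa in both genotypes, and Ccn3 is lower with TNFa and higher in the mutant.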

How the data were processed

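The authors computed the deposited log2 signals with RMA in Affymetrix Expression Console, per the submitters' processing notes. The sources used here name neither tool versions nor a build for the array. RMA makes arrays alike in distribution, so differences are relative to the other genes, and levels of different probe sets cannot be compared. Of 19825 probe sets 18851 carried 1 gene symbol and 974 none. Each gene took its brightest probe set by mean over 16 arrays. It was tested if above its array's 40th percentile on at least 4 arrays. A limma model (version 3.58.1, under R 4.3.3) with a mean for each group was fitted to the 16 arrays together. Genes with a Benjamini-Hochberg adjusted p below 0.05 over 11766 genes were called. The functions were tested on simulated arrays. The number of arrays limits the precision.

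The 9 genes and the lists were chosen with earlier results of these data known. Named beyond the 9 were Itga6, Itgb5 and Itgb8, up to 6 called related genes with the smallest p per comparison, and the 3 nearest profiles of each called gene. Same-numbered arrays rarely deviated together and the labels do not say whether they share a source, so numbers were not used as pairs. Alternatives covered filters, probe sets, variance models, scaling, weights, blocks, fold limits and leaving out arrays.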

Additional observations from a re-analysis of the deposited data

Results flagged for a closer look

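Within groups of 4 arrays, 5 of 88 sets of values (22 genes in 4 groups) had 1 array far from the other 3 by Dixon's ratio, and chance gives about 1 in 20. Itgb1 was 10.31 log2 on array WT 4, beside 10.12 to 10.14 on the others. Lamb3 was 10.17 log2 on array WT + TNFa 4, where the next highest was 9.80. Lama3 was 9.95 log2 on array mutant + TNFa 3, a small gap to 9.88 in a group that varied little. Mmp7 was 7.30 log2 on array mutant 1, below 7.89 on the next. Mmp14 was 8.75 log2 on array mutant + TNFa 1, below 8.97 on the next.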

How the results depend on the processing

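Of the 9 calls among the listed genes, 8 held under every alternative run, the exception being Itga2 between genotypes without TNFa. The 8 include the genotype calls of Fn1, which are a description, since Fn1 was tested only through its WT arrays, where it was high. The alternative that raised dim values to the limit left the mutant no spread for Fn1 and is no check of its calls. Alternatives on probe sets could not change these genes' values, since each has 1 probe set. Leaving out an array of a group not compared could not change the difference itself. The listed genes called in the mutant against WT without TNFa numbered 1 in place of 2 with a minimum of 1.5-fold, and 1 to 3 when an array was left out. With TNFa they numbered 2 in place of 1 with the stricter filter, the variance trend, quantile normalization or only the groups compared, 3 with array weights, and 1 to 3 when an array was left out. Related genes called went from 14 to 9 for TNFa in WT with only the groups compared. With at least 1.5-fold they went to 3 for TNFa in WT, from 10 to 4 for TNFa in the mutant and from 4 to 0 for genotype without TNFa (2 to 6 when an array was left out). For genotype with TNFa they went from 3 to 1 with no filter or only the groups compared, to 6 with array weights, and to 1 to 4 when an array was left out. Over all genes, TNFa in WT went from 1269 to 720 with only the groups compared and 261 with at least 1.5-fold, and TNFa in the mutant from 704 to 1095 with array weights and 191 with 1.5-fold. Genotype without TNFa went from 292 to 443 and 93, and genotype with TNFa from 317 to 617 and 113 in the same way, to 185 with only the groups compared, and to 191 to 339 when an array was left out. The difference of TNFa effects went from 1 gene to 3 with the stricter filter or array weights, 5 with the variance trend, and 0 to 4 when an array was left out. The cause of these shifts was not tested.

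The same number joined arrays with a correlation of deviations over 0.1 in 1 of 8 pairs of untreated and treated arrays. Whether same-numbered arrays share a culture or animal is not stated, and such correlations over groups of 4 arrays cannot settle it. With the replicate number as a block, 0 of 45 values of the listed genes changed call, Ccn2 lost its calls for TNFa in WT (limma adjusted p = 0.050) and genotype without TNFa (0.095), Lama4 lost its call for genotype with TNFa (0.079), and the count over all genes for the difference of TNFa effects went from 1 to 0. Over 1224 values of the listed genes under alternatives, some of which could not change them, 19 changed a call and 31 near 0 changed sign without being called. Signals of Fn1 below 6.56 log2 limit its fold.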
